A study of Mus musculus with 15 samples.

Results

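Chemokines and their receptors were examined in RNA of the mouse femur after spaceflight, with and without a segmental bone defect (SBD). Genes were taken by name from the mouse symbols that begin with Ccl, Cxcl, Cx3cl, Ccr, Cxcr, Cx3cr or Xcr and a digit, and each gene was represented by the probe with the highest mean sample signal over all arrays. Of 62 such symbols, 52 had a matched probe, among 21154 named genes on the array, and these comprised 33 ligands and 19 receptors. The symbols with no matched probe were Cxcl11, Ccl27b, the Ccl21 copies and the Ccl16 and Ccl19 pseudogenes, and they were not analysed here.

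All animals were male C57BL/6J mice, 9 weeks old by the labels, and the tissue was labelled callus in every group. By the study's methods that is about the age at surgery, and tissue was taken weeks later, after the flight period or its matched time on the ground. G-Sham mice stayed on the ground unoperated (4 arrays, replicates 1, 3, 4 and 5), and FLT-Sham mice were unoperated and flown (4 arrays, replicates 4, 6, 8 and 9). G-Surgery mice carried the SBD on the ground (4 arrays, replicates 1, 3, 4 and 5), and FLT-Surgery mice carried it in flight (3 arrays, replicates 1, 3 and 5). In the Surgery groups the defect was held by an intramedullary needle and a synthetic graft wrapped in a collagen sponge with saline, and in the Sham groups the matching midshaft segment was taken. Carcasses were frozen whole and partly thawed before dissection, which applied to all 4 groups. The labels do not state that each number is a separate mouse, so that p-values measure the spread between these samples.

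Chemokines are small secreted proteins that draw cells along a gradient by binding G protein-coupled receptors on leukocytes, progenitors and vessel cells. Inflammatory ligands are made after injury and recruit neutrophils, monocytes and lymphocytes, whereas homeostatic ligands such as Cxcl12 position cells in marrow and lymphoid organs. In a healing fracture, chemokines of the first kind are known from the early inflammatory phase, and several CC ligands also act on osteoclast precursors.

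Each sample was labelled with Cy5 and hybridised beside a Cy3-labelled reference pool of mouse cell lines. Values below are log2 ratios of sample over reference for 1 probe, so that a positive ratio is a level above that of the pool, and ratios of different genes are not levels that can be ranked against each other. A probe was called above background where the scanner software marked its Cy5 signal well above the local background. Between 22.4% and 38.5% of all probes passed this on an array, lowest in FLT-Surgery (22.4% to 25.6%) and highest in FLT-Sham (26.6% to 38.5%). The arrays lay on 3 slides, of which the last held a single G-Sham array, and the other slides each held arrays of all 4 groups. Among 13 osteoblast and osteocyte markers, Col1a1, Col1a2, Spp1 and Bglap2 were above background on all 15 arrays. On no array were 4 of the 13, the osteocyte markers Dmp1, Sost and Phex among them. Skeletal muscle markers were also well represented, with none of the 8 below background throughout. In such bulk samples, fewer cells of a type and less RNA per cell cannot be told apart.

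Detection was counted over arrays by the probe chosen for each gene, first for the ligands and then for the receptors. Of the 33 ligands, 17 were above background on at least 3 arrays and 6 on all 15, namely Ccl2, Ccl3, Ccl5, Ccl9, Ccl19 and Cxcl12. Of the 19 receptors, 4 were above background on at least 3 arrays (Ccr7, Ccr8, Ccr9 and Cxcr6), and Ccr9, the receptor of Ccl25 on thymocytes and gut-homing T cells, was the receptor detected on all 15. In all, 24 of the 52 genes were above background on no array by their chosen probe and 7 on 1 or 2 arrays. The study describes the RNA of these samples as sub-optimal in quality, to a comparable degree in flight and on the ground. The part of RNA quality in detection was not tested. Among those 24, Cx3cr1 had a further probe that was above background on 2 arrays, G-Surgery 1 and FLT-Sham 4. Second probes of the detected genes Ccr8, Cxcr6, Cxcl9 and Ccl25 were above background on 0 arrays, so for these genes the probes disagreed.

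All 5 inflammatory and myeloid CC ligands (Ccl3, Ccl4, Ccl5, Ccl6 and Ccl9) reached at least 3 arrays. Both membrane-bound ligands, Cxcl16 and Cx3cl1, did so too, as did 3 of the 4 homeostatic and lymphoid ligands. Among the ligands that attract T cells through Ccr4, Ccr6 or Ccr8 (Ccl1, Ccl17, Ccl20 and Ccl22), 0 of 4 were above background on any array. Of the neutrophil-attracting CXC ligands, Cxcl5 was above background on 3 arrays, Cxcl1 on 1, and Cxcl2, Cxcl3 and Cxcl15 on 0.

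The reference channel tells whether a probe gave signal at all on these arrays. It was above background on all 15 arrays for 29 members, and 7 of these were below background in every sample, namely Ccl12, Ccl17, Ccr4, Ccr6, Cxcl10, Cxcr3 and Cxcr4. A further 14 members, Ccr1, Ccr2 and Ccr3 among them, were below background in both channels on every array by their chosen probe. For those 14, absence of the transcript and failure of the probe cannot be told apart.

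**Figure D1:**
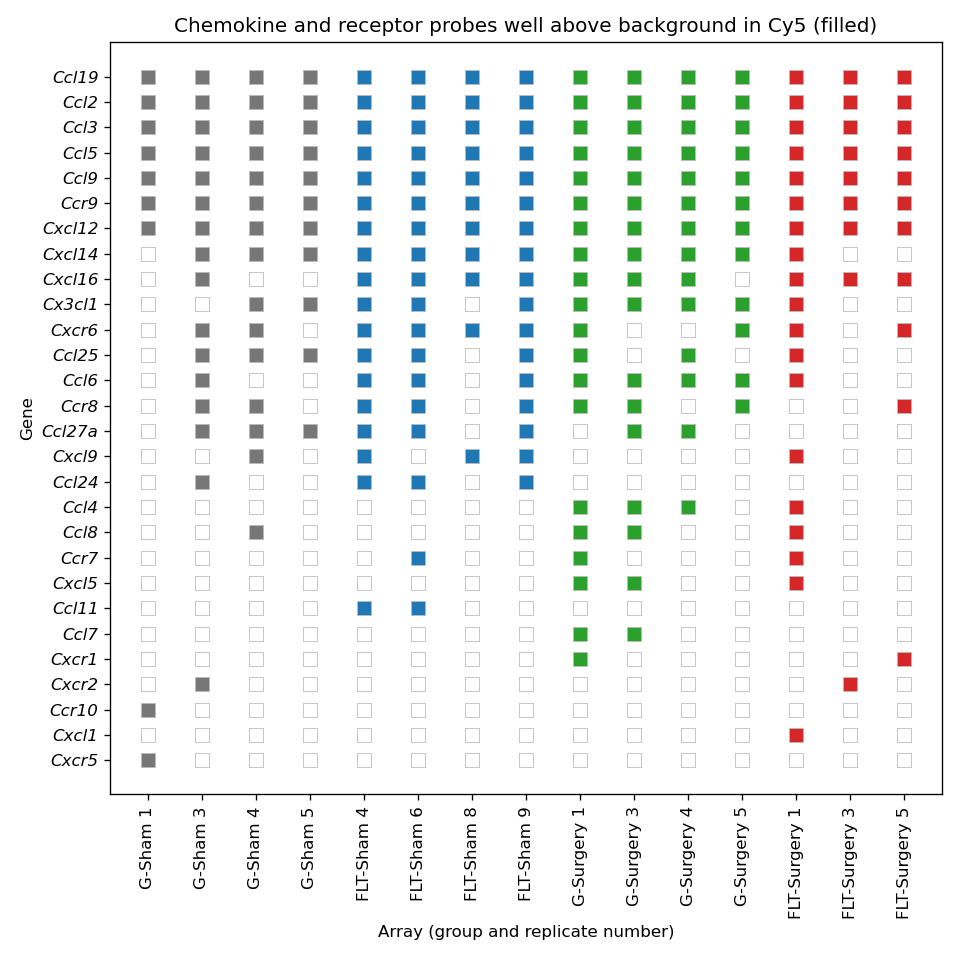
Each row is a gene with at least 1 detection and each column an array, ordered by group. A filled square marks a Cy5 signal well above background, and the 7 genes at the top are filled on all 15 arrays, whereas Ccl4 is filled on 3 G-Surgery arrays and 1 FLT-Surgery array.

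The number of members above background on an array ranged from 9 to 20. It was 9, 16, 15 and 11 in G-Sham replicates 1, 3, 4 and 5, and 18, 18, 11 and 17 in FLT-Sham replicates 4, 6, 8 and 9. In G-Surgery replicates 1, 3, 4 and 5 it was 20, 17, 14 and 12, and in FLT-Surgery replicates 1, 3 and 5 it was 19, 9 and 11. The arrays with few members were mostly those with few probes of any kind above background. FLT-Surgery 1 was apart from this, with 19 members at 25.6% of all probes, whereas FLT-Surgery 5 had 11 members at 25.2%. Counted over groups, 10, 17 and 13 members reached at least 3 arrays in the first 3 groups in that order, and 8 in FLT-Surgery, which has 3 arrays only.

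**Figure D2:**
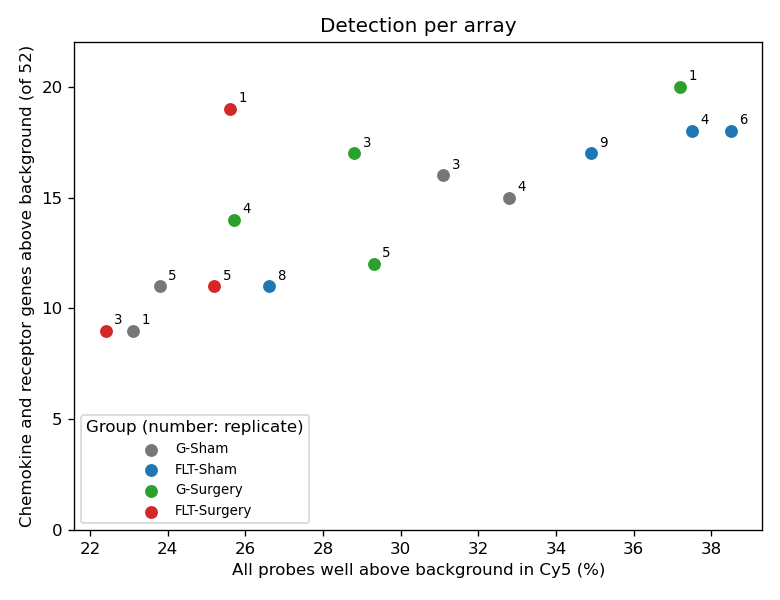
The vertical axis counts the chemokine and receptor genes above background on an array, of 52, and the horizontal axis gives the percentage of all probes above background on it. Points are arrays, numbered by replicate, and FLT-Surgery 1 lies at 19 genes beside arrays with 9 to 14 genes at a similar percentage.

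Many of these genes are neighbours. On chromosome 11 lie 14 members, of which 9 were above background on at least 3 arrays, and within the CC ligand cluster there the order of members is Ccl2, Ccl7, Ccl11, Ccl12, Ccl8, Ccl1, Ccl5, Ccl9, Ccl6, Ccl3 and Ccl4. Detection was uneven inside the cluster: Ccl2, Ccl5, Ccl9 and Ccl3 were above background on all 15 arrays, Ccl6 on 9, Ccl8 and Ccl4 on 4 each, Ccl7 and Ccl11 on 2 each, and Ccl12 and Ccl1 on 0. On chromosome 9, where most CC receptor genes sit, 3 of 12 members reached at least 3 arrays, and the adjacent run of Ccr1, Ccr1l1, Ccr3 and Ccr2 gave no detection.

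For the comparisons, limma was fitted over all probes that 3 or more of the arrays in question showed above background in the sample channel. A gene counted as past the cut-off of the study's methods when its fold change reached 2 and its unadjusted p was no higher than 0.01. In each pairwise comparison 17 members could be tested. A member that entered only through the group in which it was high could hardly come out level, so that counts below are descriptions. By limma 0 members reached an adjusted p of 0.05 in any comparison, against 0.0113% of all probes in G-Surgery against G-Sham, 0.0836% in FLT-Surgery against FLT-Sham and 0 in the others. An unadjusted p under 0.05 was reached by 2 members in G-Surgery against G-Sham and by 4 in FLT-Surgery against FLT-Sham, and by 0 in either comparison of flight with ground, where 10.9% and 24.3% of all probes reached it in the first and second. The comparisons share groups with one another, and their values are therefore given side by side and not correlated. Since the median over all probes was itself off 0, by 0.14 to 0.28 in size, the 4 genes past the cut-off are also given relative to it.

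Whether the defect changed chemokine expression on the ground was addressed by G-Surgery against G-Sham. Here 2 members were past the cut-off, both CC ligands of the chromosome 11 cluster and both higher in G-Surgery, where 2.59% of all probes tested were past it in either direction and 2.08% in the higher direction. Ccl4, also called macrophage inflammatory protein 1 beta, had log2 ratios of -5.17, -4.38, -5.48 and -4.38 in G-Sham 1, 3, 4 and 5, and 0.80, 0.82, -0.22 and -3.05 in G-Surgery 1, 3, 4 and 5. The groups did not overlap, although G-Surgery 5 was below background like all G-Sham arrays. The difference of the fit was 4.44 ± 0.82 on the log2 scale (SE, unadjusted p = 0.000507, adjusted p = 0.183), or 4.30 relative to the median of all probes. Ccl4 was not well above background on any G-Sham array, so its sample signal there is not a measured level. The mean log2 Cy5 signal was 9.12 in G-Surgery and 8.32 in G-Sham, 1.73-fold higher in G-Surgery with below-background arrays included. These Cy5 values were taken after the average intensities of the arrays were made equal in distribution. The dimmest probe well above background on each array was set as a floor, but it changed no value here.

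Ccl9, a myeloid CC ligand made by macrophages and osteoclast-lineage cells and bound by Ccr1, was above background on all arrays of both groups. Its log2 ratios were -1.78, -0.39, -1.46 and -1.29 in G-Sham 1, 3, 4 and 5, and 0.40, 0.47, 0.02 and -0.22 in G-Surgery 1, 3, 4 and 5. Every G-Surgery array lay above every G-Sham array, although G-Sham 3 and G-Surgery 5 came close to each other. The difference was 1.40 ± 0.345 (SE, unadjusted p = 0.00324, adjusted p = 0.290), or 1.26 relative to the median of all probes. Across all probes tested in this comparison, 6.86% had groups that did not overlap, and 5.31% did so in the higher direction. Within slides, the difference in Ccl9 was 0.461 on slide 1 and 2.0 on slide 2, and with slide as a block it was 1.19 ± 0.445 at unadjusted p = 0.0351, no longer past the cut-off. For Ccl4 the within-slide differences were 3.56 and 5.60, and the value with the block was 4.52 ± 1.07 (unadjusted p = 0.00472), a description like its other values, since Ccl4 passed the filter through the G-Surgery arrays alone. Leaving out G-Surgery 1, G-Surgery 3 or G-Sham 4 moved the p of Ccl9 to between 0.0101 and 0.0110. Without G-Surgery 1, 3 or 4 Ccl4 was above background on too few arrays to be tested. With normexp background correction the differences were 0.95 for Ccl4 and 0.47 for Ccl9, under the fold change required.

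**Figure D3:**
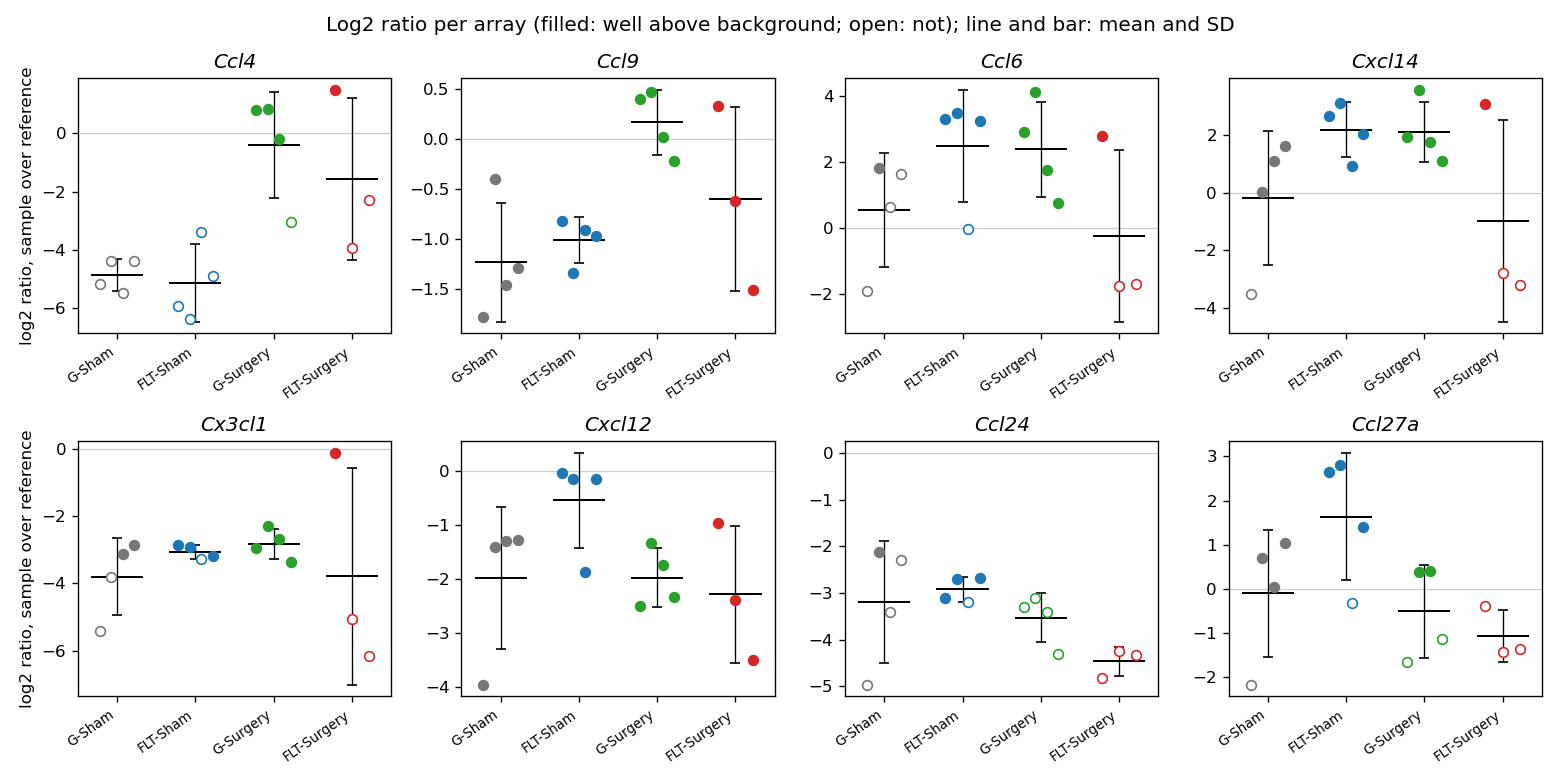
Each panel gives the log2 ratio of sample over reference for 1 gene, with a point per array, the group mean as a line and the SD as a bar. Filled points are well above background and open points are not. Ccl4 and Ccl9 are higher in all G-Surgery arrays than in all G-Sham arrays, and in Ccl6, Cxcl14, Cx3cl1 and Ccl4 the point of FLT-Surgery 1 lies far above those of FLT-Surgery 3 and 5.

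Ccl9 and Ccl6 are next to each other in the cluster, and their promoters are shown because the first gene was past the cut-off and its neighbour, also higher in mean, was not. Sequences are from RefSeq on GRCm38.p6, run from 250 bases before to 50 bases after the start of transcription, and lie at chr11:83578587-83578886 for Ccl9 and at chr11:83593038-83593337 for Ccl6, both on the minus strand. Capitals mark matches, on either strand, to an NF-kB-like motif (3 G, any 2 bases, 3 T and 2 C, in that order), an AP-1-like motif (TGANTCA) and the TATA box (TATAAA), of which 2 matches to the TATA box overlap.
Ccl9: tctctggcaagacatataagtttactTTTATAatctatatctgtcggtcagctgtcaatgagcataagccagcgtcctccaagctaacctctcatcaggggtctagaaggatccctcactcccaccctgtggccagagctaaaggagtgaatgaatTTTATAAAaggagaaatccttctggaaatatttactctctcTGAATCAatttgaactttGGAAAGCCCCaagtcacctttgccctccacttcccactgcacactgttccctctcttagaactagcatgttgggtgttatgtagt
Ccl6: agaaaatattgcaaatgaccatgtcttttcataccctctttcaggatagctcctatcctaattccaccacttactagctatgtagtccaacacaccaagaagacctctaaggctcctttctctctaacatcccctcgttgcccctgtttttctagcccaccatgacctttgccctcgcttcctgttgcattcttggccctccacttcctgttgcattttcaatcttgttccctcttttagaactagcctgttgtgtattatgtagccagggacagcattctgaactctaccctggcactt

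The Ccl9 window held all 3 motifs, with the AP-1-like match at bases 198 to 204 and the NF-kB-like match at bases 216 to 225 of the 300, and the Ccl6 window held none. Of all 32851 promoters of that length, 1.63% held the NF-kB-like motif, 7.81% the AP-1-like motif and 13.6% the TATA box. Promoters were matched for 38 of the 52 members. Among these, 6 held the NF-kB-like motif (Ccl9, Ccl20, Ccr3, Cxcl1, Cxcl2 and Cxcl3), 8 the AP-1-like motif and 12 the TATA box. A match is a string of letters and says nothing of binding in these samples.

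Cxcl5, Ccl7 and Ccl8 were detected on some of these arrays. Cxcl5, which attracts neutrophils through Cxcr2, had log2 ratios of -1.49, 0.77, -2.35 and -4.21 in G-Surgery 1, 3, 4 and 5 against -4.93, -5.54, -5.64 and -4.79 in G-Sham. It was above background on G-Surgery 1 and 3 and on no G-Sham array, and was untested because it reached too few arrays. Its mean normalized Cy5 signal, below-background arrays included, was 1.40-fold higher in G-Surgery. Ccl7, a monocyte attractant and neighbour of Ccl2, was likewise above background on G-Surgery 1 and 3 alone of these arrays. Its mean normalized Cy5 signal was 1.11-fold higher in G-Surgery. Ccl8, another monocyte attractant, was above background on G-Surgery 1 and 3 and on G-Sham 4, and its difference was 0.51 ± 0.91 (adjusted p = 0.841).

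Ccl2, the main monocyte attractant, was detected on all arrays of both groups. Its log2 ratios were -3.21, -2.86, -3.01 and -3.38 in G-Sham and -2.43, -2.88, -2.87 and -2.81 in G-Surgery, a difference of 0.36 ± 0.24 (adjusted p = 0.585). The groups overlapped by the values of G-Sham 3 and G-Surgery 3 and 4. Ccl3, a ligand of Ccr1, had ratios of -1.15, -0.33, -1.04 and -0.48 in G-Sham and -0.83, -0.39, -0.33 and -1.25 in G-Surgery, a difference of 0.05 ± 0.32. Ccl5, made by T cells among others, had -0.49, -0.41, -0.89 and -0.63 in G-Sham and -0.23, -0.38, -0.43 and -0.80 in G-Surgery, a difference of 0.14 ± 0.24. Both genes overlapped widely between the groups.

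Of all 17 members tested in G-Surgery against G-Sham, 14 had a higher and 3 a lower mean, with a median of 0.44 against 0.14 over all probes, of which 40.1% were lower. The median of the members was 0.0468 with further loess and 0.0626 with normexp, with 11 higher in each, against -0.0864 and -0.0290 over all probes. The largest positive difference after Ccl4 was that of Cxcl14, a ligand of epithelia and stroma, at 2.29 ± 1.08 (adjusted p = 0.484), where G-Sham 1 alone was below background. With 1 array left out it ran from 1.18 to 2.89. The lowest were Ccl27a (-0.41 ± 0.77) and Ccl25 (-0.33 ± 0.63). With 1 array left out, Ccl27a ran from -1.10 to -0.02 and Ccl25 from -0.95 to -0.03. Ccl27a had ratios of -2.16, 0.69, 0.05 and 1.04 in G-Sham and -1.66, 0.38, 0.40 and -1.12 in G-Surgery, and Ccl25 had -3.44, -1.04, -0.93 and -0.93 in G-Sham and -1.21, -2.79, -1.41 and -2.23 in G-Surgery. In both genes the lowest value was that of G-Sham 1. A second Ccl27a probe, like the first above background on 5 of these arrays, gave the opposite sign (0.86 ± 1.12). Cxcl16, a transmembrane ligand of Cxcr6 on myeloid cells, was above background on 1 G-Sham and 3 G-Surgery arrays and differed by 1.16 ± 0.67 (adjusted p = 0.541).

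Markers of monocytes and macrophages were set beside Ccl4 and Ccl9. Over all probes tested, 40.1% were lower in G-Surgery, 2.08% were past the cut-off in the higher direction and the median was 0.14. Of the 12 genes of that list, 9 were tested, 8 were higher in G-Surgery and 3 were past the cut-off in that direction (Cd14, C1qc and Ms4a7), with a median of 0.87. The summed Cy5 signal of the list, in units of the 75th percentile of each array, went the other way, from 606 to 1180 in G-Surgery and from 1210 to 2160 in G-Sham, and Itgam was the member with a lower mean ratio in G-Surgery (8.05 against 8.36). None of the 12 was below background on all 15 arrays. The part of these cells in the values of Ccl4 and Ccl9 was not tested.

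In flight, FLT-Surgery against FLT-Sham gave 2 members past the cut-off, both lower with the defect, where 6.65% of all probes were past it and 6.23% in the lower direction. Both members entered the test through FLT-Sham arrays alone, the group in which they were high, so their values and calls are descriptions. Ccl27a, a skin-associated ligand of Ccr10, had log2 ratios of 2.65, 2.80, -0.31 and 1.41 in FLT-Sham 4, 6, 8 and 9 and -0.39, -1.43 and -1.36 in FLT-Surgery 1, 3 and 5. The groups were separated by little, since FLT-Sham 8 and FLT-Surgery 1 almost met. The difference was -2.70 ± 0.78 (unadjusted p = 0.0092, adjusted p = 0.149), or -2.41 relative to the median of all probes. No FLT-Surgery array was above background by this probe, and the mean normalized Cy5 signal, below-background arrays included, was 1.65-fold higher in FLT-Sham. A dimmer probe of Ccl27a differed by -2.44 ± 1.75 and was not past the cut-off. The call was lost with further loess (-1.42), median centring (-2.21), normexp (-0.95), no filter on dim probes, slide as a block (-2.80, unadjusted p = 0.0197) and without any 1 FLT-Surgery array (p from 0.0130 to 0.0349), and without FLT-Sham 4, 6 or 9 neither Ccl27a nor Ccl24 could be tested.

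Ccl24, an eosinophil attractant of the eotaxin family made by macrophages, had log2 ratios of -3.11, -2.70, -3.19 and -2.68 in FLT-Sham and -4.82, -4.24 and -4.34 in FLT-Surgery. All FLT-Surgery arrays were lower, and all were below background, as was FLT-Sham 8. The difference was -1.55 ± 0.35 (unadjusted p = 0.0025, adjusted p = 0.136), or -1.26 relative to the median of all probes. Like Ccl27a, Ccl24 entered the test through FLT-Sham arrays alone, so its values are descriptions. Its mean normalized log2 Cy5 signal was not higher in FLT-Sham (8.09) than in FLT-Surgery (8.43). The call was lost with Cy5 alone (-0.91), with all 15 arrays in the fit, with median centring of arrays (-1.06, unadjusted p = 0.0239) and with a further loess (-0.28, unadjusted p = 0.554). With normexp background correction the sign turned (0.48, unadjusted p = 0.0784). Of the 8 eosinophil, basophil and mast cell markers, 5 were below background on all arrays, 2 were tested and both were lower with 1 past the cut-off. Over all probes tested, 58.5% were lower and 6.23% were past the cut-off in that direction. The summed signal of the list ran from 0.743 to 1.76 in FLT-Surgery and from 0.998 to 1.63 in FLT-Sham.

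Of the homeostatic ligands tested in flight, Cxcl12 and Ccl25 had a lower and Ccl19 a higher mean with the defect, none of them past the cut-off. Cxcl12, made by marrow reticular cells and osteoblasts and holding progenitors and B cells through Cxcr4, had ratios of -0.03, -0.14, -1.86 and -0.14 in FLT-Sham 4, 6, 8 and 9 and -0.97, -2.38 and -3.51 in FLT-Surgery 1, 3 and 5. The difference was -1.74 ± 0.72 (unadjusted p = 0.042, adjusted p = 0.194), and FLT-Sham 8 lay among the FLT-Surgery arrays. A second Cxcl12 probe, above background on all these arrays, differed by -0.17 ± 0.54 (unadjusted p = 0.76), so that the 2 probes disagreed. Ccl25, the ligand of Ccr9, differed by -1.86 ± 0.71 (unadjusted p = 0.031, adjusted p = 0.180), with FLT-Sham 8 and FLT-Surgery 3 and 5 below background.

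Ccr9, its receptor, had ratios of 0.05, -0.04, 1.02 and 0.65 in FLT-Sham and 1.04, 1.35 and 1.28 in FLT-Surgery, and the arrays did not overlap although FLT-Sham 8 and FLT-Surgery 1 were nearly level. The difference was 0.80 ± 0.39 (adjusted p = 0.243). In this comparison 3 of 17 members had groups that did not overlap (Ccl24, Ccl27a and Ccr9), against 14.7% of all probes, or 10.6% in the lower and 4.06% in the higher direction. In all, 9 members had a higher and 8 a lower mean, the median being 0.0052 against -0.28 over all probes, of which 58.5% were lower. The largest negative differences were those of Cxcl14 (-3.16 ± 1.46, adjusted p = 0.227) and Ccl6 (-2.73 ± 1.33, adjusted p = 0.242), with FLT-Surgery 3 and 5 below background for both. The largest positive ones were those of Ccl19 (0.91 ± 0.67) and Ccl3 (0.84 ± 0.61). Ccl19 had ratios of 1.26, 2.20, 4.23 and 2.85 in FLT-Sham and 3.49, 3.78 and 3.35 in FLT-Surgery, with FLT-Sham 8 the highest of all, and a further probe of the gene differed by -1.53 ± 0.93. Ccl3 had ratios of -1.29, -2.14, -0.45 and -1.03 in FLT-Sham and 0.73, -1.35 and -0.54 in FLT-Surgery, where FLT-Surgery 1 was the highest.

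Markers of other cells differed in the same comparison. Of 11 neutrophil markers tested, 10 were lower in FLT-Surgery and 4 past the cut-off, and the summed signal ran from 59 to 378 against 484 to 817 in FLT-Sham. Over all probes tested, 58.5% were lower and 6.23% were past the cut-off in that direction. All 4 erythroid markers tested were past it in the lower direction (9.17 to 57.8 against 74.5 to 270), and of 8 skeletal muscle markers 7 were lower and 2 past it. The part of these cells in the values of Ccl24, Ccl27a, Cxcl12 and Ccl25 was not tested.

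**Figure D4:**
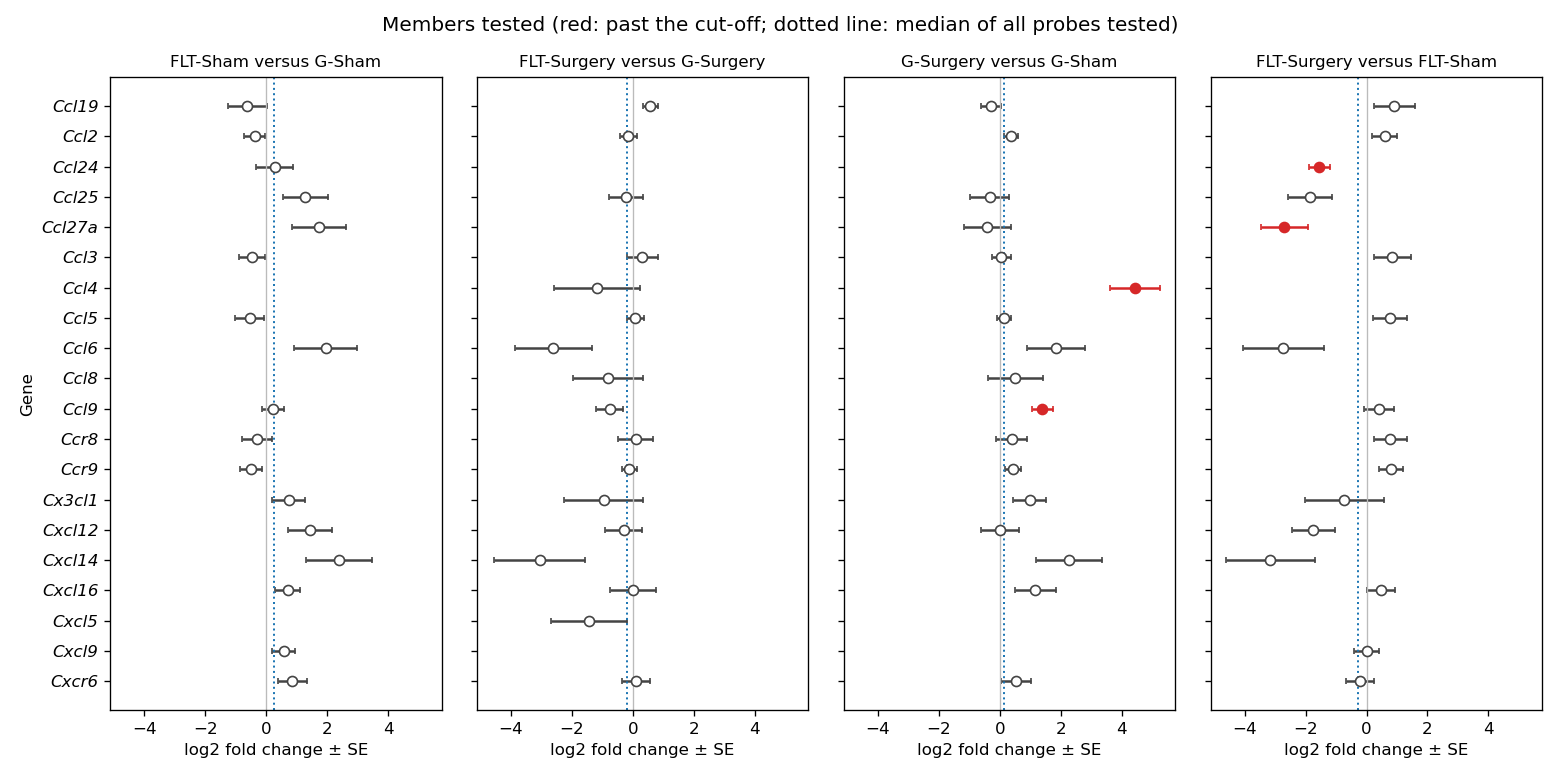
Points give the log2 fold change of each member tested and bars its SE, in a panel for each pairwise comparison, with red for genes past the cut-off and a dotted line at the median of all probes tested. Ccl4 and Ccl9 are past it in G-Surgery against G-Sham, Ccl24 and Ccl27a in FLT-Surgery against FLT-Sham, and no gene in either comparison of flight with ground.

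The effect of spaceflight on the unoperated femur was addressed by FLT-Sham against G-Sham. By limma 0 of 17 members were past the cut-off and 0 had an unadjusted p under 0.05, where 2% of all probes were past it and 9.57% had such a p. For 0 members the groups failed to overlap, as they did for 4.6% of all probes. Cxcl14 gave the largest difference, with ratios of -3.54, 0.03, 1.10 and 1.62 in G-Sham 1, 3, 4 and 5 and 2.65, 3.12, 0.93 and 2.05 in FLT-Sham 4, 6, 8 and 9. The groups overlapped by G-Sham 4 and 5, and G-Sham 1 was below background. The difference was 2.39 ± 1.07 (unadjusted p = 0.055, adjusted p = 0.515), and without G-Sham 1 it was 1.27.

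Ccl6, a myeloid CC ligand of rodents, followed with 1.95 ± 1.04 (adjusted p = 0.522). Its ratios were -1.92, 1.83, 0.62 and 1.63 in G-Sham and 3.30, 3.48, -0.05 and 3.24 in FLT-Sham, and 3 FLT-Sham arrays lay above all G-Sham arrays while FLT-Sham 8 was low and below background. Ccl27a (1.73 ± 0.88) and Cxcl12 (1.44 ± 0.71) were next, while the second Cxcl12 probe, above background on all 8 arrays, differed by -0.12 ± 0.32. The lowest were Ccl19 (-0.61 ± 0.64), the ligand that draws dendritic cells and T cells by Ccr7, and Ccl5 (-0.55 ± 0.47), whose ratios were -1.95, -1.83, 0.05 and -0.86 in FLT-Sham 4, 6, 8 and 9. The other Ccl19 probes had the opposite sign, at 0.41 ± 0.77 (above background on 8 arrays) and 1.62 ± 0.84 (on 3). In this comparison 11 members had a higher and 6 a lower mean, with a median of 0.58 against 0.24 over all probes, of which 38.9% were lower.

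The effect of spaceflight on the defect was addressed by FLT-Surgery against G-Surgery. Again 0 of 17 members were past the cut-off by limma and 0 had an unadjusted p under 0.05, where 3.14% of all probes were past it and 16.4% had such a p. For several ligands the FLT-Surgery arrays lay far apart. For Cxcl14 the ratios were 1.93, 3.56, 1.76 and 1.12 in G-Surgery 1, 3, 4 and 5, and 3.06, -2.78 and -3.21 in FLT-Surgery 1, 3 and 5. FLT-Surgery 1 thus lay inside the G-Surgery range and the other FLT-Surgery arrays far below it, both below background. The difference was -3.07 ± 1.48 (unadjusted p = 0.074, adjusted p = 0.334).

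The pattern recurred in other ligands. Ccl6 had ratios of 2.91, 4.12, 1.76 and 0.74 in G-Surgery and 2.79, -1.78 and -1.71 in FLT-Surgery, a difference of -2.62 ± 1.26 (adjusted p = 0.333). Cx3cl1, the membrane-bound ligand fractalkine, had ratios of -2.94, -2.30, -2.68 and -3.36 in G-Surgery and -0.12, -5.07 and -6.17 in FLT-Surgery, so that 1 FLT-Surgery array lay above and the others below every G-Surgery array. Of Ccl4 the FLT-Surgery ratios were 1.48, -3.94 and -2.27, and the first was the highest on any of the 15 arrays.

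Among the 21 members that were tested in any comparison or in the interaction, FLT-Surgery 1 was the highest of the 3 FLT-Surgery arrays for 15, as it was for 45.1% of all probes tested in the interaction. It exceeded both others by over 2 on the log2 scale for 7 of them, namely Cxcl14, Cx3cl1, Ccl6, Ccl8, Ccl4, Cxcl5 and Ccr7, and for 8.22% of all those probes. Above background on FLT-Surgery 1 but on neither of the others were 10 members, which besides these 7 were Ccl25, Cxcl1 and Cxcl9. Cxcl1, a neutrophil attractant, was above background on this array alone, with a ratio of 0.66 against -5.24 and -5.54. FLT-Surgery 1 was hybridised on slide 2 and the other FLT-Surgery arrays on slide 1, and the part of the slide was not tested apart from the block below.

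**Figure D5:**
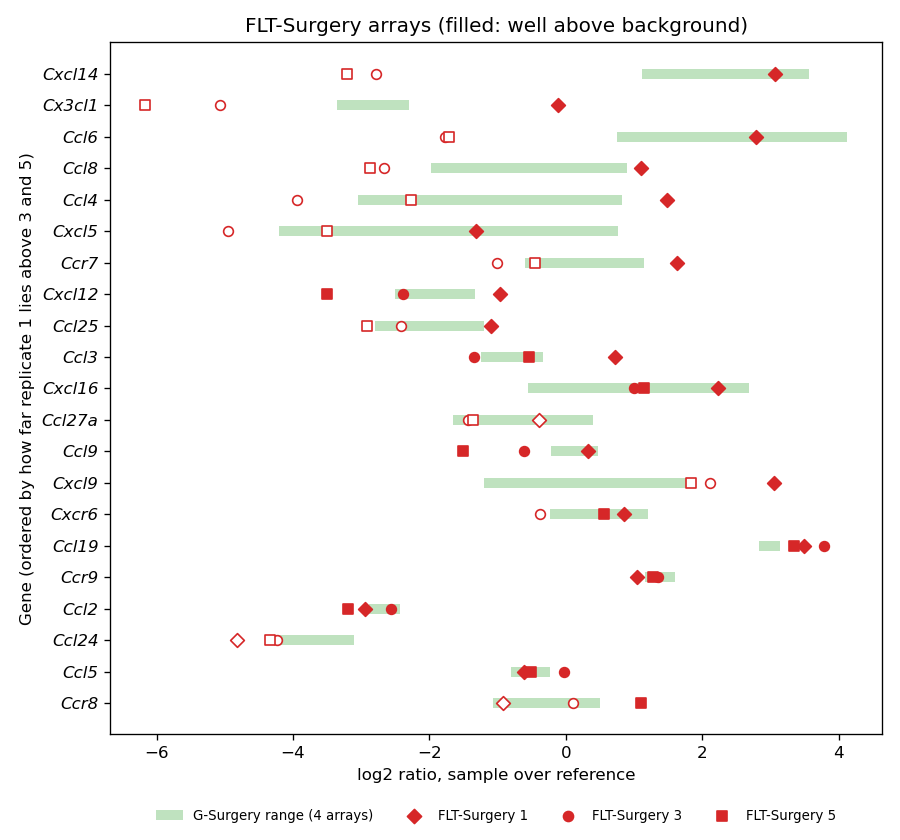
Log2 ratios of the 21 members tested are shown for FLT-Surgery 1 (diamonds), 3 (circles) and 5 (squares), filled where well above background, beside bars that span the 4 G-Surgery arrays. From Cxcl14 to Ccr7, FLT-Surgery 1 lies over 2 above both other FLT-Surgery arrays, and for Ccl19, Ccr9, Ccl2, Ccl24 and Ccl5 the 3 arrays lie within 1 of each other.

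Without FLT-Surgery 1, which leaves 2 arrays, 3 members were past the cut-off in the lower direction in FLT-Surgery against G-Surgery. They were Cxcl14 (-5.08), Cx3cl1 (-2.80) and Ccl6 (-4.13), where 12.7% of all probes then were past it in either direction. FLT-Surgery 1 had been seen to be high for these genes, and FLT-Surgery 3 and 5 were below background for all 3. The genes thus entered the test through G-Surgery arrays alone, so these values are descriptions. With slide as a block and all arrays kept, Ccl6 (-2.90 ± 0.64, unadjusted p = 0.00289) and Cxcl14 (-3.39 ± 0.78, unadjusted p = 0.00365) were past the cut-off, as were 7.8% of all probes. Within slide 2, on which FLT-Surgery 1 and G-Surgery 3 were the arrays compared, Cxcl14 differed by -0.50 and Ccl6 by -1.33, whereas on slide 1 they differed by -4.59 and -3.55. Against FLT-Sham, leaving out FLT-Surgery 1 put 5 members and 13% of all probes past the cut-off, and all 5 were lower (Ccl6, Ccl24, Cx3cl1, Cxcl12 and Cxcl14). All but Cxcl12 were below background on FLT-Surgery 3 and 5 and entered through FLT-Sham arrays alone, so this is a description as well.

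The highest differences of flight in the defect were those of Ccl19 and Ccl3. Ccl19 had ratios of 2.83, 3.14, 3.01 and 2.89 in G-Surgery and 3.49, 3.78 and 3.35 in FLT-Surgery, and all FLT-Surgery arrays lay above all G-Surgery arrays. The difference was 0.57 ± 0.25 (unadjusted p = 0.051, adjusted p = 0.306), and it was the single member whose groups did not overlap, where 13.6% of all probes did not, 6.02% in the higher direction. A further Ccl19 probe, above background on 3 of these arrays, differed by -0.58 ± 0.56, and the sign of the first probe turned with normexp background correction (-0.065). Ccl3 differed by 0.31 ± 0.51. Over the 17 members, 6 had a higher and 11 a lower mean, with a median of -0.24 against -0.20 over all probes, of which 62.2% were lower.

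Whether the response to flight differed between Surgery and Sham was tested by the interaction over all 15 arrays, in which 21 members entered and 0 were past the cut-off by limma, where 5.33% of all probes were. An unadjusted p under 0.05 was found for 2 members and for 19.5% of all probes. Cxcl14 gave -5.45 ± 1.94 (unadjusted p = 0.014, adjusted p = 0.194), being higher in mean in FLT-Sham than in G-Sham and lower in FLT-Surgery than in G-Surgery, and Ccl6 gave -4.57 ± 1.75 (unadjusted p = 0.020, adjusted p = 0.206). Without FLT-Surgery 1 both were past the cut-off, together with Cx3cl1 and 10.3% of all probes. This too is a description, since that array had been seen to be high for these genes. Negative estimates numbered 13 of 21, and over all probes 60.8% were negative.

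Ligands and receptors of one axis were next set side by side, each by its chosen probe. Cxcl12 was detected on 15 arrays and Cxcr4 on 0, Ccl2 on 15 and Ccr2 on 0, and Cx3cl1 on 10 with Cx3cr1 on 0 by its chosen probe. For the ligands Ccl3, Ccl5 and Ccl9 on 15 arrays and Ccl6 on 9, the receptor Ccr1 was on 0. Cxcr2, the neutrophil receptor for Cxcl1, Cxcl2 and Cxcl5, was above background on 2 arrays, G-Sham 3 and FLT-Surgery 3, on neither of which any of these ligands was. Cxcr1, its relative, was on 2, with a ratio of 12.97 on FLT-Surgery 5, over a reference below background, where the other 14 arrays lay between -1.32 and 2.26.

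Both sides reached at least 3 arrays for Ccl25 and Ccr9, Cxcl16 and Cxcr6, and Ccl19 and Ccr7. Ccl25 was above background on 9 arrays and Ccr9 on 15, and Cxcl16 on 11 with Cxcr6 on 10, whereas second probes of Ccl25 and Cxcr6 were on 0. Ccl19 was on 15 and its receptor Ccr7 on 3 (FLT-Sham 6, G-Surgery 1 and FLT-Surgery 1), while Ccl21 was not measured. Ccl27a was on 8 arrays and its receptor Ccr10 on 1. Cxcr6 had ratios of -1.22, 0.77, -0.19 and -0.58 in G-Sham, 0.19, 0.30, 1.34 and 0.39 in FLT-Sham, 1.21, -0.06, -0.23 and -0.00 in G-Surgery and 0.85, -0.38 and 0.55 in FLT-Surgery. All 4 groups overlapped, and its differences lay between -0.21 and 0.86 with SEs from 0.46 to 0.49.

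Interferon-induced ligands were seen in part. Cxcl9, which draws activated T cells by Cxcr3, was above background on 1 G-Sham array, on 3 of FLT-Sham, on 0 of G-Surgery and on 1 of FLT-Surgery, with ratios of 2.22, 2.10, 2.23 and 2.78 in FLT-Sham and 1.89, -1.19, -0.49 and 1.18 in G-Surgery. Its difference between FLT-Sham and G-Sham was 0.58 ± 0.38 (adjusted p = 0.543), and between FLT-Surgery and FLT-Sham 0.0052 ± 0.42. A second Cxcl9 probe was above background on 0 arrays. Cxcl10 and the receptor Cxcr3 were below background on all 15 arrays. Cxcl13, which forms B cell follicles, was likewise below background throughout, and its receptor Cxcr5 was above it on G-Sham 1 alone, at a ratio of 4.64.

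Genes near this system but outside the name rule were examined as well. Of 14 atypical receptors and further chemokines, 0 were past the cut-off in any of the 4 pairwise comparisons, with 7 to 9 tested in each. Of all probes 2% to 6.65% were past it, so that few or no calls are to be had from so small a set. Among them Pf4, the platelet chemokine, and the cytokine Mif with its receptor chains Cd74 and Cd44 were above background on all 15 arrays. Ackr3, the scavenger receptor of Cxcl12, was above background on 3 FLT-Sham arrays, on 2 of G-Surgery, on 1 of G-Sham and on 0 of FLT-Surgery, and differed by -2.08 ± 0.67 between FLT-Surgery and FLT-Sham (unadjusted p = 0.0148, adjusted p = 0.156). That value is a description, since Ackr3 entered through FLT-Sham arrays alone. Of 46 genes of receptor signalling and cell migration, 30 were tested in G-Surgery against G-Sham, with 25 higher and 2 past the cut-off, where 2.59% of all probes were past it and 40.1% were lower (Stat3 at 1.15 ± 0.34 and Rgs2, a regulator of G protein signalling, at 1.29 ± 0.35). In FLT-Surgery against G-Surgery 23 of 29 were lower and 0 past the cut-off, with a median of -0.50, where 62.2% of all probes were lower, 3.14% were past the cut-off and the median was -0.20.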

How the data were processed

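RNA of 15 femur segments (G-Sham 4, FLT-Sham 4, G-Surgery 4, FLT-Surgery 3) was hybridised as Cy5 with a common Cy3 reference on 2-colour Agilent arrays without dye swaps, so that dye bias does not cancel. Scanner intensity values and the log10 ratio of sample over reference were deposited as Agilent Feature Extraction 12.0.3.1 wrote them, background-subtracted and dye-normalized per the file headers. The authors' series table held the same log10 ratio within 0.005. An exact 0 in that ratio filled 15.9% to 32.3% of probes per array.

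The deposited ratios were turned to log2, outlier spots were left out and spots of a probe averaged. Probes that passed background in the sample channel on 3 or more of the arrays in question were fitted with limma 3.58.1 (R 4.3.3) on the arrays of both groups, the interaction on all 15, with Benjamini-Hochberg adjustment over all probes. The cut-off was a fold change of 2 and an unadjusted p of 0.01. Groups came from the labels. The steps were tested on simulated data. Depth has no counterpart on arrays, and precision is limited by their number.

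Named with their values were genes past the cut-off, genes above background on 3 arrays of one group and 0 of another, the 2 largest differences in each direction and fixed ligand and receptor pairs. Members and lists were chosen with earlier results of these data known. Alternatives covered further loess, median centring, normexp (offset 50, on median spot signals since mean signals were not used here), Cy5 alone, the dim probe filter, slide and replicate blocks and leaving out each array. Of 55681 probes, 28026 had a symbol by accession. Folds of the mean Cy5 signal used values after quantile normalization of the average intensities (Aquantile). The values of 1 member are not reported here.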

Additional observations from a re-analysis of the deposited data

Results flagged for a closer look

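A value far from the others of its group was found in 7 of 63 combinations of gene and group of 4 arrays, by the gap to the nearest array over the group's range, where chance gives 3.15. In G-Sham 1 the log2 ratios of Cxcl12 (-3.96) and Ccl25 (-3.44) lay below those of the other G-Sham arrays, and Ccr9 lay highest in G-Sham 4 (1.40). In FLT-Sham 8 the ratios of Cxcl12 (-1.86) and Ccl6 (-0.0485) lay below the other FLT-Sham arrays. In G-Surgery 1 the ratios of Ccl2 (-2.43) and Cxcr6 (1.21) lay above the other G-Surgery arrays. G-Sham 1 and FLT-Sham 8 had the lowest share of probes above background in their groups (23.1% and 26.6%), and G-Surgery 1 the highest in its group (37.2%). The part of this in the values was not tested.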

How the results depend on the processing

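Of 107 recomputed counts of members past the cut-off 75 stayed within 1.5 times the value reported, and of 449 recomputed differences and medians 403 kept direction and side of the cut-off. In FLT-Sham against G-Sham the count was 0 under every alternative run. In FLT-Surgery against G-Surgery it was 2 with further loess (Ccl19 and Cxcr6) and 2 with slide as a block, and between 0 and 3 with 1 array left out. In G-Surgery against G-Sham the normexp correction gave 0, dropping the filter gave 5, and a stricter filter (every array, both channels) gave 1. It was 1 with slide as a block, and from 0 to 3 with 1 array left out. In FLT-Surgery against FLT-Sham it was 0 with further loess, median centring, normexp or both channels, 1 with Cy5 alone, no filter, all 15 arrays in the fit or slide as a block, and from 0 to 5 with 1 array left out. In the interaction it was 1 with further loess (Ccr8), normexp (Ccl3) or Cy5 alone (Cxcl14), and from 0 to 3 with 1 array left out.

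Medians over the members changed sign as follows. For FLT-Sham against G-Sham the median was -0.0726 with further loess, -0.11 with normexp and -0.48 with both channels. For FLT-Surgery against G-Surgery it was 0.17 with further loess and 0.0914 with median centring. For the interaction it was 0.76 with further loess, 0.0511 with normexp, 0.0768 with no filter and 0.36 with both channels. For FLT-Surgery against FLT-Sham it was -0.36 without FLT-Surgery 1 and up to 0.45 without another array. Ccl19 in FLT-Surgery against G-Surgery turned to -0.0649 with normexp, Ccl24 in FLT-Surgery against FLT-Sham to 0.48 with normexp, and Ccl3 in FLT-Surgery against G-Surgery ran from -0.24 to 0.79 with 1 array left out. The cause was not tested. Further loess moved the median of all probes too, to -0.13 in FLT-Sham against G-Sham, 0.30 in FLT-Surgery against G-Surgery, -0.0864 in G-Surgery against G-Sham and 0.36 in FLT-Surgery against FLT-Sham.

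Replicate numbers are shared by some groups but did not pair the samples: deviations of same-numbered arrays correlated at -0.363 to 0.354, and 1 of 4 G-Surgery and 0 of 3 FLT-Surgery arrays matched best with its own number. With the replicate block the count was 0 in FLT-Surgery against G-Surgery, 2 in G-Surgery against G-Sham and 1 (Ccl19) in the interaction.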
